A study of Mus musculus with 9 samples.

Results

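The interferon response genes are 9 transcripts that interferon signalling is known to switch on: Ifit1, Ifit3, Isg15, Irf7, Usp18, Rsad2, Bst2, Ifi44 and Oasl2. They were chosen by symbol, and all 9 were found among the 37668 genes of the deposited table. The series holds 9 RNA-seq samples of frozen aorta from male mice aged 90 days, on a background labelled 129T2SvEmsJ:C57Blk/6J. Every mouse carried the floxed AT1ar allele, which encodes the angiotensin II type 1a receptor. The floxed group (3 samples) had no Cre transgene. The Cdh5Cre group (3 samples) had Cre under the promoter of an endothelial cadherin gene, and the Sm22Cre group (3 samples) had Cre under that of a smooth muscle gene. The design is meant to compare mice with the receptor against mice lacking it in endothelial or in smooth muscle cells. The series title names Marfan syndrome, but the labels name no fibrillin allele, and no group with Cre and an unfloxed receptor gene was analysed here.

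The authors' table gives 1 value per gene and group, read here as FPKM (fragment numbers divided by transcript length and by the library's mapped total). With a single value per group there is no SD, the depth of the libraries is unknown, and no difference between groups could be set against the spread between samples. The values are described below without tests. In whole aorta, fewer cells of a type and less RNA per cell cannot be told apart. Smooth muscle markers were abundant in every group, as the tissue label states, with Myh11 between 1142 and 1341 FPKM. The targeted gene Agtr1a was low throughout: its floxed level was 1.75 FPKM, against 1.32 with Cdh5-Cre and 1.21 with Sm22-Cre. These whole-tissue values do not show in which cells the receptor gene was lost. Where 3 levels follow a gene without group names, they are those of floxed, Cdh5Cre and Sm22Cre, in that order.

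Interferons are secreted proteins that cells release on sensing foreign or misplaced nucleic acid. Type I interferons bind the receptor pair IFNAR1 and IFNAR2, whose kinases JAK1 and TYK2 pass the signal to transcription factors. STAT2 and IRF9 take part in binding the interferon-stimulated response element (ISRE) in the promoters of target genes. Some targets block viral replication and others, such as Usp18, damp the signal. Vessel wall cells and the leukocytes among them can all respond.

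The ISRE core is shown first, since it is the sequence feature these genes are known for. Of the 9 genes, 8 had an entry in the RefSeq promoter table (build GRCm38.p6, 250 bases before to 50 after the transcription start), and Usp18 had none. The letters searched were GAAA, any 2 bases, then GAAA again, on either strand, overlaps allowed. They were found in 5 of the 8 promoters (62.5%), against 3.99% of the 27025 genes in the table. The stretches that hold them are given 5′ to 3′ on the gene's own strand, with the matches in capitals. On the opposite strand the element reads TTTC, any 2 bases, TTTC, as in Ifit1, Ifit3 and Rsad2.
Isg15, chr4:156200855-156200916, minus strand: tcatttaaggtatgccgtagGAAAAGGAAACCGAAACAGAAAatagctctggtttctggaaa
Bst2, chr8:71537567-71537622, minus strand: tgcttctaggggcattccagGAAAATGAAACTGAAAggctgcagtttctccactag
Rsad2, chr12:26456543-26456592, minus strand: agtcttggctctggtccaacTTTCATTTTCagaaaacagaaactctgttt
Ifit1, chr19:34640765-34640833, plus strand: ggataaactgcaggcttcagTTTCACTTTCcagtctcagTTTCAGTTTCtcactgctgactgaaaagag
Ifit3, chr19:34583353-34583436, plus strand: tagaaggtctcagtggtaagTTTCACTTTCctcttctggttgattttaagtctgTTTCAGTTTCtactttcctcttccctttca

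Isg15 held 3 overlapping matches, Bst2 held 2 overlapping ones, Ifit1 and Ifit3 each held 2 separate ones, and Rsad2 held 1. The farthest match began at position -156 in Ifit3 and the nearest at -66 in Isg15, with the first transcribed base at 0. No match lay in the windows of Irf7, Ifi44 and Oasl2, which says only that these letters were not in those windows. The gamma-activated sequence, with the letters TTCNNNGAA on either strand, was found in 1 of the 8 promoters, that of Bst2, where it overlapped the ISRE letters. It was found in 9.55% of all genes in the table.

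**Figure D1:**
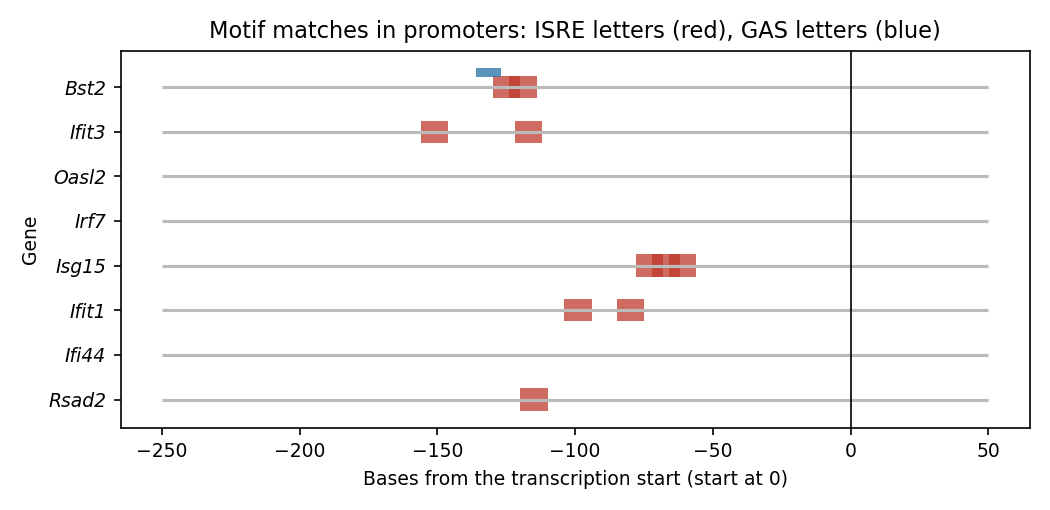
Positions of the ISRE letters (red) and the gamma-activated letters (blue) in the 8 promoters with an entry; the x axis is the distance in bases from the transcription start at 0, and each row is 1 gene, from the highest to the lowest level in floxed. The 10 ISRE matches all lie upstream of the start, in 5 of the 8 genes.

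Among the 9 genes, levels in the floxed aorta ran from 31.6 FPKM for Bst2 to 0.482 for Rsad2. Ifit3 followed Bst2 at 10.8 FPKM, then Oasl2 at 6.28, Irf7 at 5.17 and Isg15 at 4.48. Ifit1 and Usp18 were close to each other at 1.64 and 1.59 FPKM, and Ifi44 stood at 0.840. FPKM is scaled to transcript length, so these levels can be compared between genes, although neighbours in this order have no error to separate them. The table's own status column, which no source used here explains, was OK for all 9 genes in every pair of groups. Only Ifi44 stayed under 1 FPKM in all 3 groups and so fell outside the 14227 genes analysed. Rsad2 passed that filter only through the Cre groups, and a gene that does so has to be higher in them.

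**Figure D2:**
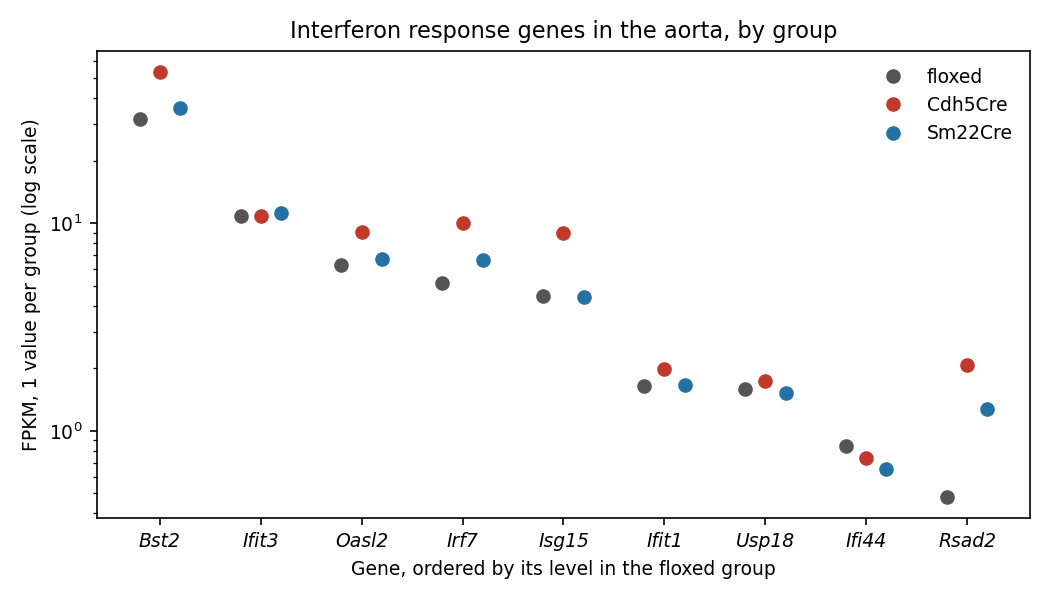
FPKM of the 9 genes in floxed (grey), Cdh5Cre (red) and Sm22Cre (blue), on a log axis; each point is the authors' single value for a group, so there are no error bars. The Cdh5Cre point is the highest of the 3 for 7 of the 9 genes, all but Ifit3 and Ifi44.

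In Cdh5Cre against floxed, 7 of the 9 genes had the higher value in Cdh5Cre, with a median log2 ratio of 0.47. Each ratio is a difference of log2(FPKM + 1), a scale that shrinks the differences of low genes. Over all 14227 genes analysed the median was 0.02, and 51.7% were higher. For 7 of the 9 genes Cdh5Cre was the highest of the 3 groups, as it was for 46.1% of all genes. A difference was counted when it reached 2-fold on this scale, which 1 of the 9 genes did (Rsad2, higher), against 1.9% of all genes, 1.2% higher and 0.703% lower. Since Rsad2 passed the 1 FPKM filter only through the Cre groups, nothing is read from this count. Log2 ratios above 0.70, reached by 5% of all genes, were seen for 4 of the 9: Rsad2, Isg15, Irf7 and Bst2. The same limit in Sm22Cre against floxed is 0.24, and 2 of the 9 were above it, Rsad2 (0.62) and Irf7 (0.32). Both of these counts include Rsad2, so nothing is read from them either. In Sm22Cre against floxed the median was 0.04, beside 0.01 over all genes. There 6 of the 9 were higher, beside 52% of all genes, and none reached 2-fold, which 0.633% of all genes did (0.302% higher and 0.33% lower). In Sm22Cre against Cdh5Cre, 8 of the 9 were lower in Sm22Cre (median -0.39), none by 2-fold, beside a median of -0.01 over all genes, of which 49.1% were higher in Sm22Cre and 1.64% reached 2-fold (0.401% higher and 1.24% lower). These comparisons share groups, so they are not independent of each other.

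Rsad2, which encodes the antiviral enzyme viperin, had the largest ratio of the 9 genes in both comparisons with floxed. Its floxed level was 0.482 FPKM, against 2.08 in Cdh5Cre and 1.28 in Sm22Cre. Both Cre groups were thus above floxed, and the value in Sm22Cre lay between the others. The log2 ratios to floxed were 1.06 in Cdh5Cre and 0.62 in Sm22Cre, and the plain ratios were 4.32 and 2.65. The number of fragments behind these low levels is not known here. Rsad2 (ENSMUSG00000020641) is listed at chr12:27127618-27141317 on mm9.

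Isg15, a small ubiquitin-like protein that is attached to other proteins, had a floxed level of 4.48 FPKM, against 8.94 in Cdh5Cre and 4.39 in Sm22Cre. The floxed and Sm22Cre values were nearly equal, and the Cdh5Cre value stood apart from them. It was 99.6% above floxed (log2 ratio 0.86), while Sm22Cre had a log2 ratio of -0.02. Isg15 also had the lowest ratio of the 9 genes in Sm22Cre against Cdh5Cre, at -0.88. Usp18, the protease that removes Isg15 from its targets and blocks the interferon receptor, did not show this order to the same extent. Its floxed level was 1.59 FPKM, against 1.74 in Cdh5Cre and 1.51 in Sm22Cre, with log2 ratios to floxed of 0.08 and -0.04. Isg15 (ENSMUSG00000035692) is listed at chr4:155573533-155574927 and Usp18 (ENSMUSG00000030107) at chr6:121195924-121220934.

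Irf7, the transcription factor that amplifies type I interferon production, had a floxed level of 5.17 FPKM, against 10.0 in Cdh5Cre and 6.68 in Sm22Cre. Both Cre groups were above floxed, as for Rsad2, with log2 ratios of 0.84 and 0.32. Its listed locus (ENSMUSG00000025498, chr7:148414683-148452380) is shared with Phrf1, so fragments may have been divided between the genes.

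Bst2, or tetherin, holds budding virus particles at the cell surface. It was the most abundant of the 9 genes in every group, with 31.6 FPKM for floxed, 53.4 for Cdh5Cre and 36.0 for Sm22Cre. The log2 ratios to floxed were 0.74 and 0.18. Oasl2, of the oligoadenylate synthase family, had the same order of groups at a lower level, with 6.28, 9.09 and 6.70 FPKM and ratios of 0.47 and 0.08. Bst2 (ENSMUSG00000046718) is listed at chr8:74058163-74061336 and Oasl2 (ENSMUSG00000029561) at chr5:115346943-115362243.

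The remaining members differed little between groups. Ifit3, which acts with Ifit1 in binding foreign RNA, had nearly the same value throughout, with 10.8 FPKM for floxed, 10.8 for Cdh5Cre and 11.1 for Sm22Cre. Ifit1 stood at 1.64, 1.99 and 1.66 FPKM, with log2 ratios to floxed of 0.18 and 0.01. Ifi44 was lower in both Cre groups, at 0.840, 0.739 and 0.656 FPKM, with log2 ratios of -0.08 and -0.15. The levels of Ifit1 and Ifit3 are uncertain, since no source used here says how reads shared with copies were treated. Of the 75-base windows of the longest coding transcript, the read length used, 41.1% in Ifit3 occur unchanged in Ifit3b and 5.19% in Ifit1 occur in Ifit1bl2. No window of the other 7 genes occurred in a transcript of another gene. Ifit3b itself, named after its values were seen, was at 4.82, 4.27 and 5.08 FPKM. Ifit1 (ENSMUSG00000034459) and Ifit3 (ENSMUSG00000074896) lie close together at chr19:34715361-34724499 and chr19:34658021-34663221, and Ifi44 (ENSMUSG00000028037) at chr3:151393886-151412911.

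The genes with and without the ISRE letters overlapped in their ratios. The 5 genes with a match ranged in Cdh5Cre against floxed from Ifit3 at a log2 ratio of 0.00 to Rsad2 at 1.06. The 3 genes whose promoter window held none ranged from Ifi44 at -0.08 to Irf7 at 0.84.

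In Cdh5Cre against floxed, short and GC-rich transcripts had higher ratios across the whole table. Spearman's rho with transcript length was -0.58 and with GC content 0.53 over 12317 protein-coding genes, which share their libraries. Isg15 and Bst2 have the shortest transcripts of the 9, at 756 and 792 bases and 52.8% and 55.3% GC. When the dependence on length and GC content was fitted over all genes and removed, the log2 ratio of Isg15 went from 0.86 to 0.37 and that of Bst2 from 0.74 to 0.20. Irf7 went from 0.84 to 0.60. Rsad2 and Oasl2 have long transcripts of 3782 and 3123 bases, and their ratios went the other way, from 1.06 to 1.3 and from 0.47 to 0.51. Ifit1 went from 0.18 to 0.33, Usp18 from 0.08 to -0.11 and Ifit3 from 0.00 to -0.10. In Sm22Cre against floxed the fit accounted for 3.84% of the variance, against 45.5% in Cdh5Cre against floxed. There Rsad2 stayed at 0.62, Irf7 went from 0.32 to 0.31 and Bst2 from 0.18 to 0.15.

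**Figure D3:**
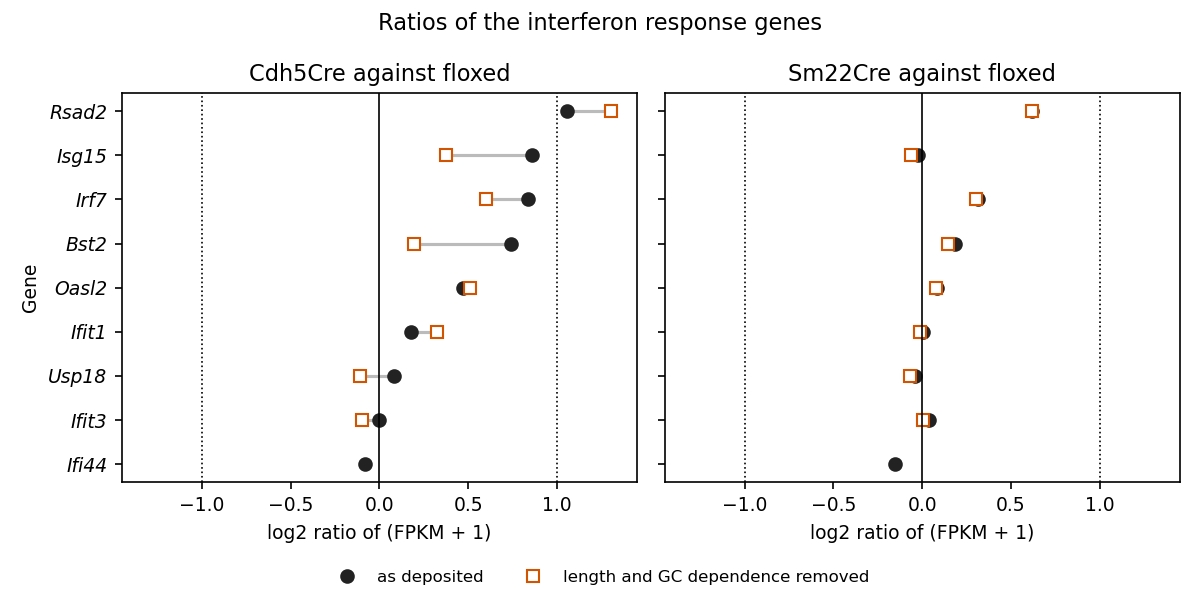
Log2 ratios of (FPKM + 1) of the 9 genes in Cdh5Cre (left) and Sm22Cre (right) against floxed; filled circles are the deposited values, open squares the values with the dependence on length and GC content removed, and dotted lines mark 2-fold. Ifi44 has no square because it was under 1 FPKM. In Cdh5Cre the squares of Isg15 (0.37) and Bst2 (0.20) lie nearer 0 than their circles, and that of Rsad2 (1.3) lies farther.

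**Figure D4:**
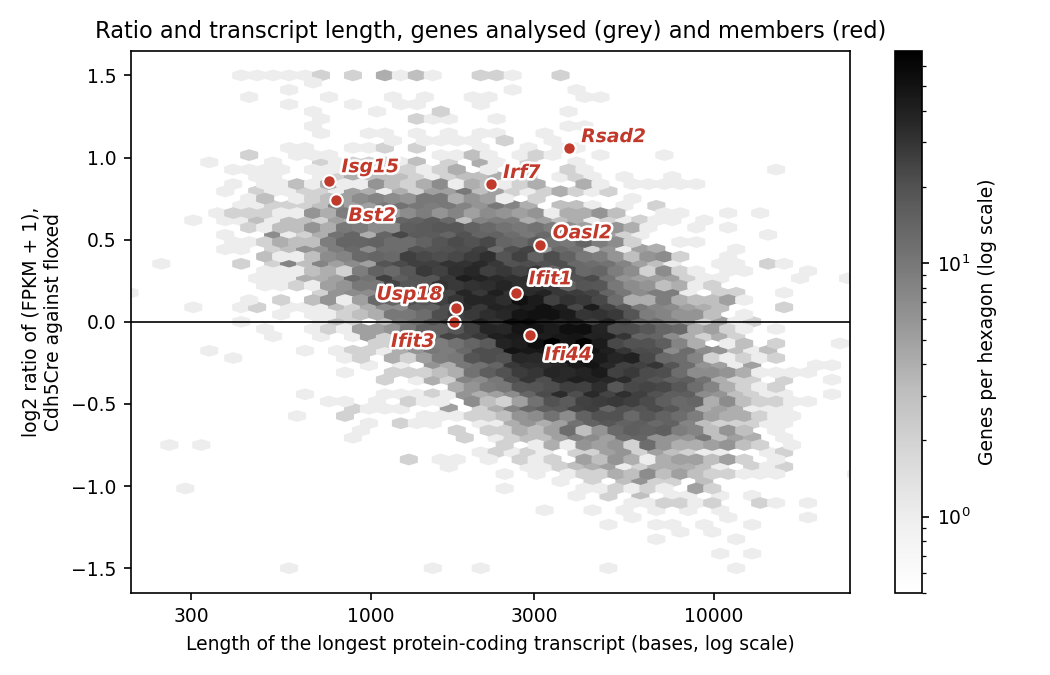
Log2 ratio of (FPKM + 1) in Cdh5Cre against floxed (y axis) by length of the longest protein-coding transcript in bases (x axis, log scale); grey shading is the number of genes per hexagon among 12317 genes, red points are the 9 interferon response genes, and ratios beyond 1.5 in size are drawn at 1.5. Isg15 and Bst2 lie among the short transcripts, at ratios of 0.86 and 0.74, and Rsad2 lies at 1.06 among long ones.

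The rest of the pathway was read from 7 lists of ligands, receptors, transducers, sensors, regulators and targets. Beside the counts below, 51.7% of all genes were higher in Cdh5Cre than in floxed, and 52% in Sm22Cre. Of all genes, 1.9% reached 2-fold in Cdh5Cre against floxed and 0.633% in Sm22Cre against floxed. Of 21 interferon genes, 11 had an entry in the table, and 8 of these were listed at 0 in every group. The others were barely above 0: Ifne was at 0.056 FPKM and Ifnk at 0.013, each in Cdh5Cre alone, and Ifng was at 0.028 in Sm22Cre alone. Ifnk shares its locus with Mob3b among others. Without the depth, a listed 0 sets no upper limit on these genes.

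The receptors differed little between groups. Ifnar1 stood at 19.7, 18.0 and 17.9 FPKM. Ifnar2, the most abundant receptor in floxed, stood at 49.6, 57.6 and 49.3 FPKM, with status FAIL in Cdh5Cre against floxed and a locus shared with Il10rb. Ifngr1, a chain of the interferon gamma receptor, stood at 45.2, 50.5 and 45.5 FPKM. The median log2 ratio of the 5 receptors analysed was -0.04 in Cdh5Cre and -0.04 in Sm22Cre, and none reached 2-fold.

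Stat2 and Irf9, which act at the ISRE, also differed little between groups. Stat2 was at 5.22, 5.70 and 5.50 FPKM and Irf9 at 9.87, 12.0 and 9.86, with status FAIL for each in both comparisons with floxed. These genes are themselves known to be induced by interferon. Of the 11 transduction genes, 7 were higher in Cdh5Cre (median 0.11) and 5 in Sm22Cre (median 0.00), and none reached 2-fold. Irf3, which starts interferon transcription after sensing, had the highest ratios, at 32.4, 51.7 and 39.1 FPKM, but with status FAIL and a shared locus. The kinase genes Jak1 (32.4, 23.2 and 31.4 FPKM) and Jak2 (16.6, 11.8 and 14.9) had the lowest ratios of this list in Cdh5Cre and in Sm22Cre respectively. Jak1 shares its locus with Raver2 among others, and Jak2 had status FAIL in Cdh5Cre against floxed. With the length and GC dependence removed, the log2 ratio of Jak1 in Cdh5Cre went from -0.47 to -0.23. That of Irf3 went from 0.66 to 0.35.

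Of 14 sensing genes analysed, 6 were higher in Cdh5Cre (median -0.10) and 7 in Sm22Cre (median 0.01). Dhx58, a regulator of RNA sensing, had the highest ratio in both, at 1.23, 2.21 and 2.04 FPKM, with status FAIL and 5 other genes at its locus. Tlr7, an endosomal RNA receptor of leukocytes, stood at 1.91, 0.965 and 2.36 FPKM, so Cdh5Cre was below both other groups. Its log2 ratio in Cdh5Cre went from -0.57 to -0.26 with the length and GC dependence removed, and that of Dhx58 from 0.52 to 0.34. Tlr3, which detects double-stranded RNA, was at 3.45, 2.74 and 2.99 FPKM. Mavs, the adaptor downstream of RNA sensors and the most abundant of the list in floxed, was at 18.6, 15.4 and 17.2, and both had status FAIL in each comparison with floxed. With the dependence on length and GC content removed, the median in Cdh5Cre was 0.03.

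Among genes of Isg15 conjugation and of feedback, 5 of 8 were higher in Cdh5Cre (median 0.34) and 6 of 8 in Sm22Cre (median 0.19). Ube2l6, the enzyme that carries Isg15 to its targets, was the only one of the 8 to reach 2-fold with a pseudocount of 1. Of all genes, 1.9% reached 2-fold in Cdh5Cre against floxed. Socs1, a feedback inhibitor named after its values were seen, was at 3.82, 7.94 and 4.84 FPKM (plain ratio 2.08 in Cdh5Cre). With a pseudocount of 0.1 it reached 2-fold as well. The 1.9% holds for a pseudocount of 1 only, so nothing is read from the count with 0.1. Ube2l6 stood at 20.3, 50.8 and 28.0 FPKM, with log2 ratios of 1.28 and 0.44. With the length and GC dependence removed its ratio in Cdh5Cre was 1.06. Uba7, which activates Isg15, and Herc6, its ligase in mice, were named after their values were seen. Uba7 was at 4.06, 6.67 and 4.89 FPKM and Herc6 at 2.32, 1.98 and 2.98, so Cdh5Cre was the highest group for Uba7 and the lowest for Herc6. Pias1, a SUMO ligase that damps cytokine signalling, had the lowest ratio of the list in Cdh5Cre, at 18.3, 12.0 and 17.7 FPKM, with status FAIL there. Its log2 ratio in Cdh5Cre went from -0.58 to -0.18 with the length and GC dependence removed.

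Type I interferon effectors other than the 9 genes gave 45 analysed genes, of which 28 were higher in Cdh5Cre and 30 in Sm22Cre. Over all genes the shares were 51.7% and 52%. The median log2 ratios of the 45 were 0.11 and 0.08. In Cdh5Cre, 2 of the 45 reached 2-fold, beside 1.9% of all genes. Isg20, an RNA exonuclease, stood at 4.89, 15.7 and 6.22 FPKM, with a log2 ratio of 1.5 in Cdh5Cre. It was also the only 1 of the 45 past 2-fold in Sm22Cre against Cdh5Cre (-1.21), beside 1.64% of all genes. Ifi27l2a, which shares its locus with Ifi27l2b, was at 54.1, 110 and 59.7 FPKM. Its ratio of 1.01 in Cdh5Cre became 0.43 with the length and GC dependence removed, while that of Isg20 became 0.99. With that dependence removed, none of the 45 was past 2-fold in either of these comparisons. The share over all genes after this removal is not given here, so nothing is read from that count. Ifitm2, an inhibitor of virus entry and the most abundant of the list in floxed, stood at 210.7, 293.8 and 211.5 FPKM. Its log2 ratio in Cdh5Cre went from 0.48 to -0.08 with the length and GC dependence removed. Ifitm1, of the same family, had the highest ratio of the list in Sm22Cre, at 0.827, 2.43 and 1.51 FPKM. Like Rsad2, it passed the 1 FPKM filter only through the Cre groups, so nothing is read from this rank. At the low end of the list, Pnpt1, a mitochondrial RNA exonuclease, was at 7.91, 4.87 and 8.73 FPKM, and Slfn5 at 8.57, 6.89 and 7.78. Slfn5 shares its locus with Unc45b among others. The log2 ratio of Pnpt1 in Cdh5Cre went from -0.60 to -0.40 with the length and GC dependence removed.

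The 20 interferon gamma response genes analysed had median log2 ratios of 0.15 in Cdh5Cre and 0.08 in Sm22Cre, with 13 and 15 higher and none at 2-fold. Psmb8, an immunoproteasome subunit, had the highest ratio in Cdh5Cre, at 10.9, 18.6 and 12.4 FPKM, but shares its locus with Tap2 among others. Gbp7, a guanylate-binding protein gene, had the lowest, at 3.94, 2.81 and 3.68. With the length and GC dependence removed, the log2 ratio of Gbp7 in Cdh5Cre went from -0.38 to 0.03. That of Psmb8 went from 0.72 to 0.37. In Sm22Cre the extremes were Ifi47 (2.97, 4.22 and 4.03 FPKM) and Irgm2 (5.52, 5.46 and 4.22), of which Ifi47 shared its locus with 11 other genes and Irgm2 had status FAIL. Tap2, the peptide transporter subunit and the most abundant of the list in floxed, was at 24.9, 22.5 and 22.3 FPKM.

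**Figure D5:**
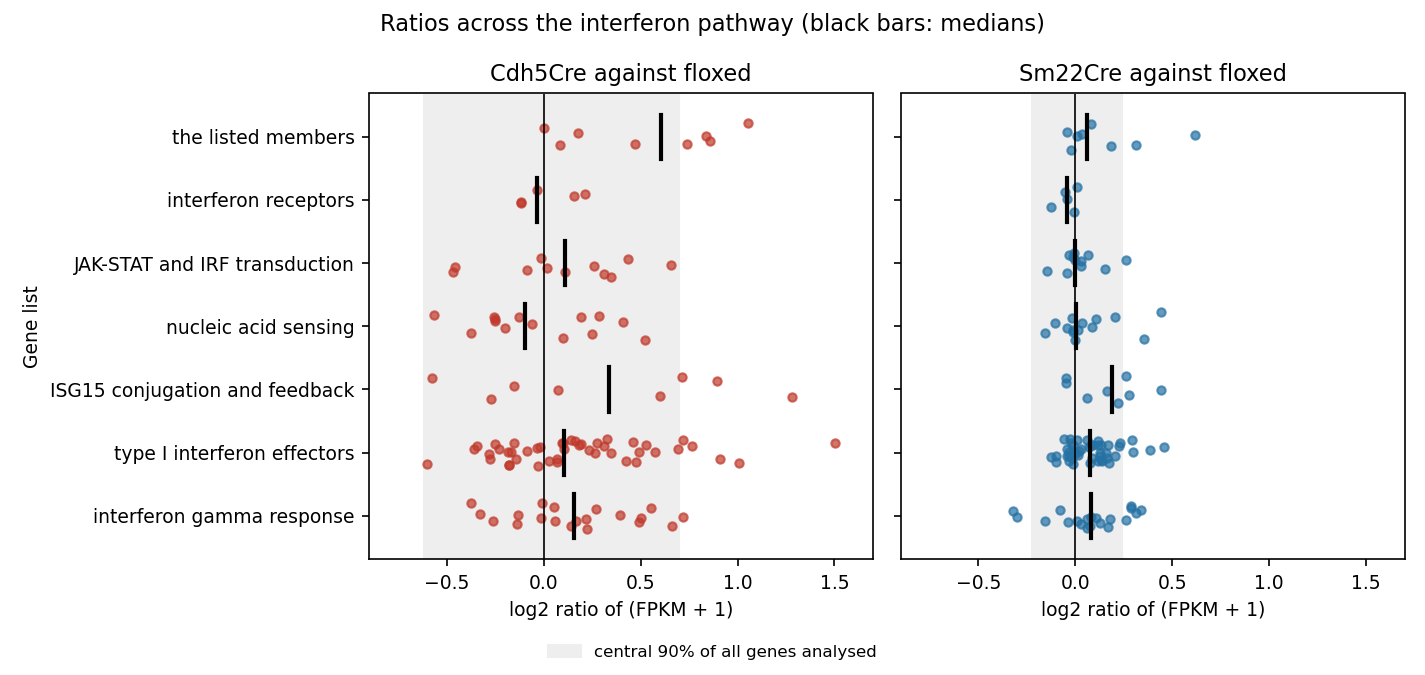
Log2 ratios of (FPKM + 1) by gene list in Cdh5Cre (left) and Sm22Cre (right) against floxed; each point is a gene at 1 FPKM or more in at least 1 group, black bars are medians, and the grey band holds the central 90% of all genes analysed. The listed members in Cdh5Cre have the rightmost median, 0.61 over 8 genes, beside 0.34 for Isg15 conjugation and feedback. With the length and GC dependence removed, these medians are nearly equal, at 0.35 and 0.34. The 8 genes include Rsad2, which passed the filter only through the Cre groups, and leave out Ifi44, which was lower in both Cre groups. Over all 9 genes the median in Cdh5Cre was 0.47. The lists in Sm22Cre have medians between -0.04 and 0.19.

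Over all 103 genes of these lists that were analysed, 61 were higher in Cdh5Cre (median 0.10), beside 51.7% of all genes, and 64 in Sm22Cre (median 0.06), beside 52% of all genes. Nothing particular to these lists is read from these counts. The median of the 103 in Cdh5Cre was 0.12 with the length and GC dependence removed. Spearman's rho between ratio and transcript length among them was -0.70 in Cdh5Cre against floxed and -0.29 in Sm22Cre against floxed, as a description across genes that share their libraries.

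Markers of platelets, red cells, neutrophils and lymphoid cells were also higher in Cdh5Cre, as were most of the endothelial and fibroblast markers. Those of macrophages and smooth muscle were not uniformly so. Of the 8 endothelial markers 7 were higher, of the 6 fibroblast markers 5, and of the 6 smooth muscle markers 2. By 2-fold or more, 2 endothelial and 2 fibroblast markers were higher. Over all genes, 51.7% were higher, 1.2% by 2-fold or more. Platelet markers summed to 45.1, 266.7 and 87.9 FPKM, and 6 of 6 were higher by 2-fold or more in Cdh5Cre, beside 1.2% of all genes. Neutrophil markers summed to 3.22, 42.1 and 12.1 FPKM, with 3 of 8 at 1 FPKM or more and Ly6g listed at 0 in floxed. Lymphoid markers summed to 13.3, 25.5 and 16.3 FPKM, erythroid markers to 4020, 25454 and 9029, and endothelial markers to 237.1, 305.5 and 258.4. The group totals were themselves unequal, at 495724, 607867 and 500015 FPKM, and the marker sums are not scaled to them. Fibroblast markers summed to 1748, 2697 and 1725 FPKM and macrophage markers to 243.4, 267.3 and 263.1. Of the 8 macrophage markers, 4 were higher and 4 lower in Cdh5Cre, and 1 of 8 was higher (median -0.16) with the length and GC dependence removed. For that removal the share over all genes is not given here. Mrc1 (11.7, 6.56 and 11.9 FPKM) and Adgre1 (6.39, 3.92 and 6.43) were among the lower ones, named after their values were seen. Of the 8 markers chosen for plasmacytoid dendritic cells, the main producers of type I interferon, 5 were under 1 FPKM in every group. The more specific Siglech was at 1.02, 0.814 and 1.34 FPKM, and the sums of 38.3, 59.1 and 19.1 were mostly Cox6a2, which striated muscle also expresses. The part of these cells in the differences of the 9 genes was not tested.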

How the data were processed

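Per the labels' protocols, poly-A RNA from frozen aorta was made into stranded libraries and sequenced as paired reads of 75 bases. Reads were processed with Cufflinks 1.3.0, SAMtools 0.1.7, TopHat2 2.0.8 and Bowtie2 2.1.0 on build mm9, per the submitters' processing notes. Their roles, their options and the annotation were not given in the sources used here. The deposited table has 113004 rows, for 37668 genes in 3 pairs of groups, with 1 value per group. Its header does not name the unit. The authors' values were read as FPKM, from the layout of the header, the tools named, and values that are never negative and not whole. Values were read from the pairs with floxed. They differed between pairs for 15 genes, none of them among the 9. Groups were taken from the sample titles, and nothing in the labels says whether samples of a group came from separate mice. The depth per library is unknown.

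Log2 ratios were computed on log2(FPKM + 1) with Python 3.11.15, for the 14227 genes that reached 1 FPKM in any group. Genes with status HIDATA (7) were left out, 1 of which had reached 1 FPKM. A fixed 2-fold size stood in for a test. The functions were tested on simulated data. Length and GC content came from the longest protein-coding transcript in GENCODE M21 and were fitted with a cubic curve. A gene name table gave symbols for 32638 genes. Listed starts were raised by 1, taking them as counted from 0. Of 221 list symbols, 207 were found. The members and lists were chosen with earlier results of these data known. Outside the 9 genes, those named from each list are ligands above 0, genes past 2-fold, the most abundant in floxed, the highest and lowest ratios, and Ifnar1, Ifnar2, Stat2 and Irf9. Other genes named, single markers among them, were chosen after their values were seen. An item that the rule would name is not reported here. Alternatives were other pseudocounts (0.1 and 0.5), filters (none and 5 FPKM), median centring, quantile normalization, the length and GC correction, genes with status OK, and plain ratios.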

Additional observations from a re-analysis of the deposited data

How the results depend on the processing

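No paired analysis was possible because the groups share no replicate numbers and the table holds only group values, and for the same reason no sample could be left out. The median over the 8 genes at 1 FPKM or more (9 with no filter, 5 with the filter at 5 FPKM) kept its sign under every alternative run: 0.35 to 0.74 in Cdh5Cre against floxed, 0.04 to 0.08 in Sm22Cre against floxed and -0.52 to -0.32 in Sm22Cre against Cdh5Cre. The number at 2-fold is less stable, since it rests on single genes near the limit. In Cdh5Cre against floxed it was 0 in place of 1 under quantile normalization, where Rsad2 had a log2 ratio of 0.99, and 0 with the filter at 5 FPKM, which leaves out Rsad2. That filter left 5 of the genes, of which 4 were higher. In Sm22Cre against floxed it was 1 in place of 0 with a pseudocount of 0.1 (Rsad2, 1.24) and with plain ratios (1.41), an alternative added after seeing the data. In Sm22Cre against Cdh5Cre it was 1 in place of 0 with a pseudocount of 0.1 (Isg15, -1.01) and with plain ratios (-1.02). With the length and GC dependence removed, 2 genes in place of 1 were higher in Sm22Cre than in Cdh5Cre, and 6 in place of 7 were higher in Cdh5Cre than in floxed. The shares over all genes given above belong to the main settings. The counts under the alternatives therefore show only how the numbers move with the setting, and nothing else is read from them. Without libraries, neither depth nor the spread between samples can be given for any of these values.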
